A study of Mus musculus with 12 samples.

Results

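The 8 endoderm transcription factors Gata4, Gata6, Sox17, Sox7, Foxa1, Foxa2, Hnf4a and Rfx6 were followed across mouse embryonic stem cells (ESCs) and the embryoid bodies (EBs) made from them, with and without the heterochromatin proteins HP1α or HP1β. The genes were taken by name, with earlier results of these data known. They are 8 of the 19938 genes that a single symbol identified on the arrays. Each was read by 1 array feature, and each exceeded the signal floor of 45 (log2 5.49), the background level that the study's methods set, on at least 1 of the 12 arrays, as did 10880 genes in all. Transcript levels were measured in WT cells of the line labelled HM1, in HP1αKO cells (Cbx5-/-) and in HP1βKO cells (Cbx1-/-), both labelled R1. The study's methods instead describe HM1 as the littermate control of the knockouts. If the labels hold, line and genotype cannot be told apart wherever a knockout is set against WT. ESCs had been grown on feeder fibroblasts and sorted for the surface antigen SSEA1. EBs are suspended cell aggregates that differentiate once leukaemia inhibitory factor is withdrawn, and were taken at day 7. Each of the 6 groups held 2 arrays, which the labels call biological replicates.

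Endoderm is the germ layer of the gut, liver, pancreas and lung, and its extraembryonic branches form the visceral and parietal endoderm around the embryo. Gata4 and Gata6 are zinc finger factors that drive the primitive endoderm programme and also act in heart. Sox17 and Sox7 are SoxF factors, Sox17 of definitive and extraembryonic endoderm and Sox7 of parietal endoderm, and both are also made in endothelium. Foxa1 and Foxa2 are forkhead pioneer factors that open chromatin of gut and liver genes, and both are also made in the floor plate. Hnf4a, a nuclear receptor, drives the genes of secreted plasma proteins in visceral endoderm and liver, and Rfx6 is a winged helix factor of gut endoderm and pancreatic islet development. In EBs an outer layer of visceral-type endoderm forms while other germ layers form inside.

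All values are log2 signals, in which 1 unit is a 2.00-fold difference. Differences are given ± SE from limma (n = 2 arrays per group), with two-sided p-values adjusted over the 10880 genes, and a gene was called at an adjusted p under 0.05. In HP1βKO, Cbx1 signals of 7.59 and 7.99 (ESCs) and of 7.73 and 7.67 (EBs) lay below all other arrays (9.36 to 10.05). Cbx5 was 9.20 and 9.21 in EB HP1αKO, below the other EB arrays (10.26 to 10.40). In ESCs it opposed the labels of 2 libraries: it was 9.66 and 8.29 in the libraries labelled ESC WT and 8.04 and 10.00 in those labelled ESC HP1αKO. Results that use ESC WT or ESC HP1αKO rest on these libraries and are given without them where that changes a call or a direction. Replicates differed more in ESCs (SD of the replicate difference over genes 0.39 to 0.57) than in EBs (0.13 to 0.20), while array medians lay between 7.10 and 7.35. In aggregates of many cell types, fewer cells of a type and less RNA per cell cannot be told apart.

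The first comparison asked how far each factor rose on differentiation, and whether it did so in each genotype. In WT, 6 of the 8 factors were higher in EBs than in ESCs, against 22.0% of all genes tested. In HP1αKO 7 of 8 were higher, against 25.0%, and in HP1βKO 5 of 8, against 22.0%. None was lower. Gata4, Gata6, Sox7 and Rfx6 were higher in all 3 genotypes, Sox17 and Foxa1 in WT and HP1αKO, Foxa2 in HP1αKO and Hnf4a in HP1βKO. The median difference of the 8 factors was 1.64 in WT, 1.65 in HP1αKO and 0.82 in HP1βKO, beside 0.05, 0.05 and 0.04 over all genes. Sox7, Foxa1, Hnf4a and Rfx6 passed the floor through EB arrays alone, so a difference in this direction was built into their being tested. With no floor the counts were also 6, 7 and 5. For Rfx6 in HP1αKO and Sox7 in HP1βKO, however, both the EB and the ESC arrays were below the floor. The fold rule of the study's methods (1.5-fold in each pair of arrays, with a signal above the floor) gave 6, 6 and 4. It left out Rfx6 in HP1αKO and Sox7 in HP1βKO.

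**Figure D1:**
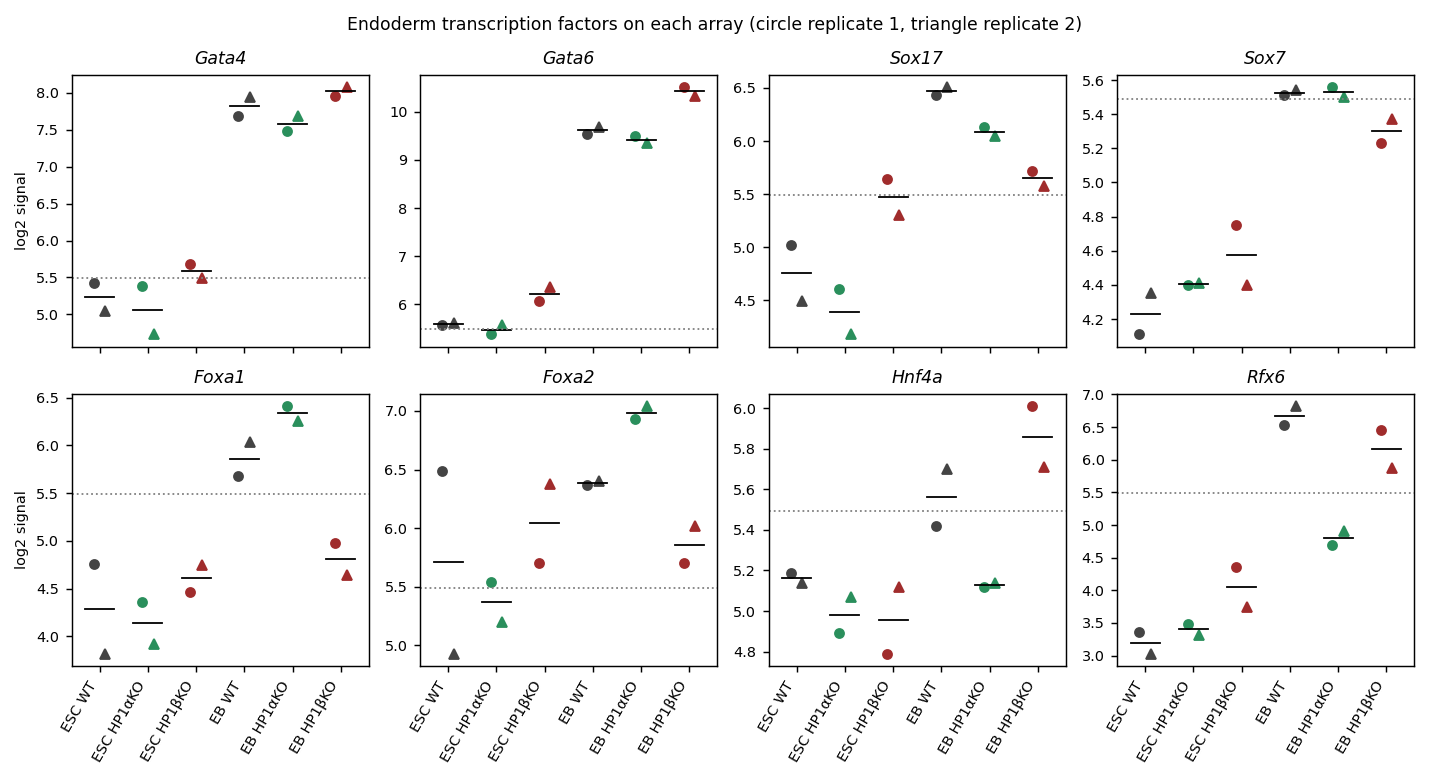
Log2 signal (vertical axis) of each of the 8 factors, 1 panel per gene, on each of the 12 arrays, by group on the horizontal axis. Circles are replicate 1, triangles replicate 2, bars group means and the dotted line the floor of 5.49, and each panel has its own scale. Gata4 and Gata6 were above the ESC arrays on every EB array, whereas Sox17, Foxa1 and Foxa2 of EB HP1βKO lay in or close to the ESC range. Foxa2 of EB WT and Hnf4a of EB HP1αKO also lay within the ESC range of the gene.

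The GATA factors rose in all 3 genotypes. Gata6 was 5.57 and 5.61 in ESC WT, 5.37 and 5.57 in ESC HP1αKO and 6.07 and 6.36 in ESC HP1βKO. In EBs it was 9.55 and 9.69 in WT, 9.50 and 9.35 in HP1αKO and 10.52 and 10.33 in HP1βKO, so that every EB array lay above every ESC array. It rose by 4.03 ± 0.15 in WT (16.3-fold, limma adjusted p = 4.04e-07), 3.96 ± 0.15 in HP1αKO (adjusted p = 2.96e-07) and 4.21 ± 0.15 in HP1βKO (18.5-fold, adjusted p = 3.62e-07). Gata4 was 5.42 and 5.04 in ESC WT, 5.38 and 4.73 in ESC HP1αKO and 5.68 and 5.49 in ESC HP1βKO, levels around the floor. Its EB signals were 7.69 and 7.95 in WT, 7.48 and 7.68 in HP1αKO and 7.96 and 8.08 in HP1βKO. The EB signals were above all ESC signals, with differences of 2.59 ± 0.22 (adjusted p = 4.53e-05), 2.53 ± 0.22 (adjusted p = 3.92e-05) and 2.43 ± 0.22 (adjusted p = 6.5e-05). As both ESC WT arrays were below the floor, the WT rise of Gata4 was at least 5.01-fold, and that of HP1αKO at least 4.26-fold, measured against the floor.

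Of the SoxF factors, Sox17 rose in WT and HP1αKO and was not called in HP1βKO. Sox17 was 5.02 and 4.49 in ESC WT, 4.61 and 4.18 in ESC HP1αKO and 5.64 and 5.30 in ESC HP1βKO. In EBs it was 6.43 and 6.51 in WT, 6.13 and 6.05 in HP1αKO and 5.72 and 5.58 in HP1βKO. It rose by 1.71 ± 0.21 in WT (adjusted p = 0.000388, at least 1.97-fold against the floor) and by 1.70 ± 0.21 in HP1αKO (adjusted p = 0.000301, at least 1.52-fold). In HP1βKO the difference was 0.18 ± 0.21 with a 95% interval from -0.29 to 0.65 (adjusted p = 0.531), and the ESC and EB arrays overlapped. Sox7 lay near the floor throughout, between 4.11 and 4.75 in ESCs and between 5.23 and 5.56 in EBs. Its differences were 1.30 ± 0.15 in WT (adjusted p = 0.000261), 1.12 ± 0.15 in HP1αKO (adjusted p = 0.000439) and 0.72 ± 0.15 in HP1βKO (adjusted p = 0.00506), where both groups were below the floor.

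Of the forkhead factors, Foxa1 was 4.76 and 3.82 in ESC WT, 4.36 and 3.92 in ESC HP1αKO and 4.47 and 4.75 in ESC HP1βKO, all below the floor. In EBs it was 5.68 and 6.03 in WT and 6.41 and 6.26 in HP1αKO, but 4.98 and 4.64 in HP1βKO, again below the floor. The rise was 1.56 ± 0.30 in WT (adjusted p = 0.0037, at least 1.29-fold against the floor) and 2.19 ± 0.30 in HP1αKO (adjusted p = 0.000491, at least 1.79-fold). In HP1βKO the difference was 0.20 ± 0.30 (adjusted p = 0.628). Foxa2 had the widest spread between ESC replicates, with 6.49 and 4.93 in WT, 5.54 and 5.20 in HP1αKO and 5.70 and 6.38 in HP1βKO. In EBs it was 6.37 and 6.40, 6.93 and 7.04, and 5.70 and 6.02. Its HP1αKO difference of 1.61 ± 0.42 was called (adjusted p = 0.014) but was lost in 3 of 4 fits with 1 array left out (adjusted p from 0.0327 to 0.0724). The WT difference of 0.67 ± 0.42 was not called (adjusted p = 0.244) and turned on the ESC replicate. It was 1.45 without ESC WT replicate 1 and -0.11 without ESC WT replicate 2. The value of 1.45 rests on ESC WT replicate 2 alone, the library whose Cbx5 signal opposed its label. The HP1βKO difference was -0.18 ± 0.42 (adjusted p = 0.766). The feeder fibroblast list, with 10 of 10 genes tested, had a mean log2 level of 7.16, 6.21 and 5.93 in the replicates numbered 1 of ESC WT, HP1αKO and HP1βKO and of 4.89, 4.97 and 4.94 in those numbered 2. Its part in the Foxa2 spread was not tested.

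Hnf4a was called in HP1βKO and not in WT or HP1αKO, and stayed near the floor. It was between 4.79 and 5.19 on all 6 ESC arrays, and in EBs 5.42 and 5.70 (WT), 5.12 and 5.14 (HP1αKO) and 6.01 and 5.71 (HP1βKO). The HP1βKO difference was 0.91 ± 0.17 (adjusted p = 0.003, at least 1.29-fold against the floor), and those of WT and HP1αKO were 0.39 ± 0.17 (adjusted p = 0.0988) and 0.15 ± 0.17 (adjusted p = 0.5). The rise in HP1βKO exceeded that in WT by 0.52, which was not called (adjusted p = 0.468). Rfx6 was between 3.03 and 4.36 on the ESC arrays, below the floor on each. EB signals above the floor were 6.53 and 6.82 in WT and 6.46 and 5.88 in HP1βKO, while those of HP1αKO, 4.69 and 4.91, were below it. The rise was 3.48 ± 0.25 in WT (adjusted p = 1.64e-05, at least 2.28-fold against the floor), 2.11 ± 0.25 in HP1βKO (adjusted p = 0.000291, at least 1.60-fold) and 1.39 ± 0.25 in HP1αKO (adjusted p = 0.00245), where both groups were below the floor. Apart from that of Foxa2, each of these calls was kept in all 4 fits that left out 1 array.

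**Figure D2:**
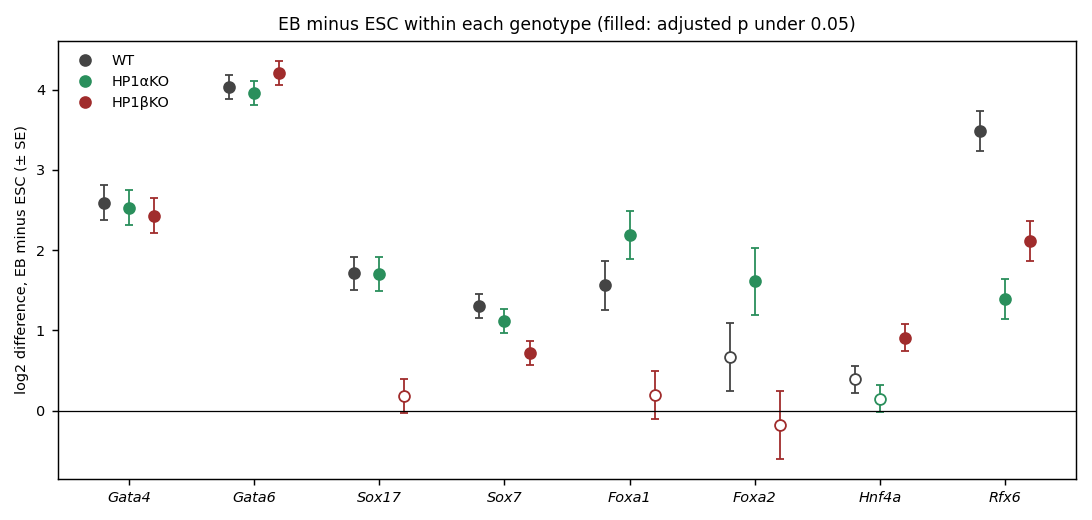
Log2 difference between EBs and ESCs (vertical axis, ± SE) for each factor within WT, HP1αKO and HP1βKO. Filled points have a limma adjusted p under 0.05, and the HP1βKO points of Sox17, Foxa1 and Foxa2 are open and lie at 0.18, 0.20 and -0.18.

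The stretches around the transcription starts of Foxa1, Rfx6 and Hnf4a are shown because these 3 factors differed between the knockout EBs below and had such a stretch in the RefSeq table used here. The table (GRCm38.p6) held windows for 4 of the 8 factors, 250 bases before the start to 50 after it. It held 1 window for Foxa1, 3 for Foxa2, 2 for Hnf4a and 1 for Rfx6. Windows were searched on both strands. The letters AGATAA and also TGATAA were taken for GATA factors, the letters TGTTTAC were taken for forkhead factors, the letters AACAAT were taken for SOX factors, and the letters CAAAGTCCA were taken for HNF4. None of the matches found overlapped another. Capitals mark the matches. Of the Hnf4a windows only the upstream one is shown, as the other held no match. Foxa1 (chr12:57546062-57546361, minus strand) held the forkhead letters on the opposite strand, Rfx6 (chr10:51685268-51685567, plus strand) held TGATAA after its start, and the upstream window of Hnf4a (chr2:163506607-163506906, plus strand) held AGATAA before its start.
Foxa1: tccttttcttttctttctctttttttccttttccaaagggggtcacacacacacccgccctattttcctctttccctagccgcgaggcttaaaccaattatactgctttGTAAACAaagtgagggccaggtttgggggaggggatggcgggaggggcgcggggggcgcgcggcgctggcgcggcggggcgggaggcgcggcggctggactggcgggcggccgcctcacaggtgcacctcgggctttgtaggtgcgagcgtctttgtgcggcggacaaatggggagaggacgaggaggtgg
Rfx6: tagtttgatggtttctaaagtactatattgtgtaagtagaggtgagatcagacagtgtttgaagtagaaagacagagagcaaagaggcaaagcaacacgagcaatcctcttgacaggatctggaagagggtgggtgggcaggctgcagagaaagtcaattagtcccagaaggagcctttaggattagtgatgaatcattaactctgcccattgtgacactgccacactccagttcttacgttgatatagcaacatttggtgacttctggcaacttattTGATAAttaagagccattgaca
Hnf4a: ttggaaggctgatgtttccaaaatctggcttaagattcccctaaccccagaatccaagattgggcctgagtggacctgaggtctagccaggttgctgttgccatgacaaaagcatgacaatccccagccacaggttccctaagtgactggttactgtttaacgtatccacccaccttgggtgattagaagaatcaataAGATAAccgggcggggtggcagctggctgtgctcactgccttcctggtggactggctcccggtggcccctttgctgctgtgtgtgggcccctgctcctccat
One of the Foxa2 windows held AGATAA as well. Of 32851 mouse windows of this length, 18.6% held a GATA match, 3.6% a forkhead match, 10.7% a SOX match and 0.5% an HNF4 match. A match of letters is a description of the window and not evidence of binding.

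The second comparison asked how loss of either HP1 protein changed the factors in EBs. Gata6 was higher in HP1βKO and Rfx6 lower in HP1αKO than in WT, and the 2 knockouts differed from each other in Gata6, Hnf4a, Rfx6 and Foxa1. Against WT, 1 of 8 factors was higher in HP1βKO, beside 1.63% of all genes, and 1 of 8 was lower in HP1αKO, beside 0.478%. Between the knockouts 3 of 8 were higher in HP1βKO, beside 1.28% of genes, and 1 of 8 was lower, beside 2.45%. Of the called factors, Foxa1 passed the floor only through EB WT and HP1αKO, and Rfx6 and Hnf4a only through EB WT and HP1βKO. A difference from the group under the floor was thus partly built into their being tested. The 2 arrays of each group did not overlap for 8 of 8 factors between HP1βKO and WT, 7 of 8 between HP1αKO and WT and 8 of 8 between the knockouts, but neither did they for 56.5%, 58.8% and 63.2% of all genes. These comparisons share arrays with each other, and their values are given side by side.

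Gata6 had the order HP1βKO, WT, HP1αKO in EBs. HP1βKO was above WT by 0.81 ± 0.15 (1.75-fold, limma adjusted p = 0.0194) and above HP1αKO by 1.00 ± 0.15 (2.00-fold, adjusted p = 0.00524), while WT and HP1αKO differed by -0.19 ± 0.15 (adjusted p = 0.899). The call against WT was lost in each of the 4 fits that left out 1 array (adjusted p from 0.0813 to 0.184), and that against HP1αKO without EB HP1αKO replicate 2 or EB HP1βKO replicate 1 (up to 0.0799). Gata4, the other GATA factor, did not pass in any of these comparisons: its differences were 0.20 ± 0.22 for HP1βKO against WT (adjusted p = 0.822), -0.23 ± 0.22 for HP1αKO against WT (adjusted p = 0.952) and 0.44 ± 0.22 between the knockouts (adjusted p = 0.468).

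Sox17 was lowest in HP1βKO EBs, and the call depended on which arrays set the spread. The difference from WT was -0.82 ± 0.21 (adjusted p = 0.0824). A fit to the 6 EB arrays alone, without the wider ESC spread, gave an adjusted p of 0.000877, and one blocked by replicate number among the ESCs 0.00272. HP1αKO lay between them, at -0.38 ± 0.21 from WT (adjusted p = 0.736) and with HP1βKO lower by -0.44 ± 0.21 (adjusted p = 0.426). Sox7 differed by -0.23 ± 0.15 in HP1βKO (adjusted p = 0.636) and by 0.00 ± 0.15 in HP1αKO (adjusted p = 1), the latter turning to -0.04 when arrays were centred on their medians.

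Foxa1 had the order HP1αKO, WT, HP1βKO. The knockouts differed by -1.52 ± 0.30 (HP1βKO minus HP1αKO, adjusted p = 0.0204), and HP1αKO was at least 1.79-fold above HP1βKO against the floor. The differences of the neighbours in this order were not called, at 0.48 ± 0.30 for HP1αKO against WT (adjusted p = 0.802) and -1.04 ± 0.30 for HP1βKO against WT (adjusted p = 0.12). Foxa2 had the same order of means, with -1.12 ± 0.42 between the knockouts (adjusted p = 0.26), 0.60 ± 0.42 for HP1αKO (adjusted p = 0.866) and -0.52 ± 0.42 for HP1βKO (adjusted p = 0.728). The Foxa1 call was lost in each fit without 1 of the 4 arrays (adjusted p from 0.0808 to 0.19).

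Rfx6 fell in HP1αKO EBs. It was lower than in WT by -1.88 ± 0.25 (adjusted p = 0.00796), and WT was at least 2.28-fold above the floor under which both HP1αKO arrays lay. HP1βKO was -0.51 ± 0.25 from WT, which was not called (adjusted p = 0.474), and above HP1αKO by 1.37 ± 0.25 (adjusted p = 0.0162, at least 1.60-fold). The call against WT was lost with any 1 array left out, at adjusted p from 0.0592 to 0.108, although the difference stayed between -2.03 and -1.73. That between the knockouts was kept in 1 of 4 such fits (0.0264 to 0.15). Hnf4a was higher in HP1βKO than in HP1αKO by 0.73 ± 0.17 (adjusted p = 0.0465, at least 1.29-fold against the floor), a call lost in all 4 such fits (0.0935 to 0.318) and with an intensity trend in the prior (0.0878). Against WT, Hnf4a was 0.30 ± 0.17 in HP1βKO (adjusted p = 0.557) and -0.43 ± 0.17 in HP1αKO (adjusted p = 0.482).

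**Figure D3:**
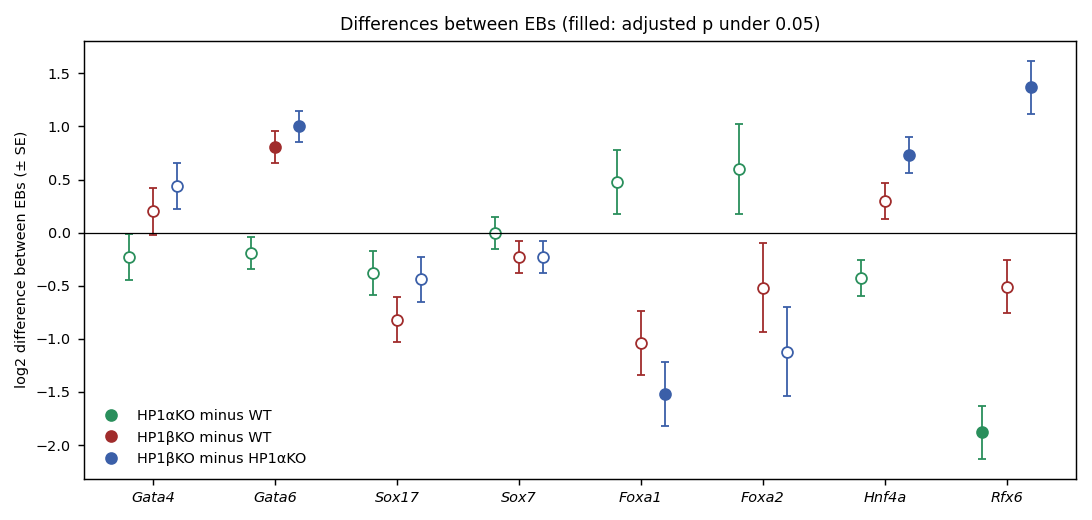
Log2 difference (vertical axis, ± SE) of each factor in EBs for HP1βKO minus WT, HP1αKO minus WT and HP1βKO minus HP1αKO. Filled points have a limma adjusted p under 0.05: Gata6 in HP1βKO against WT (0.81), Rfx6 in HP1αKO against WT (-1.88), and Gata6, Foxa1, Hnf4a and Rfx6 between the knockouts.

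Fitted to the 6 EB arrays alone, HP1βKO against WT gave calls for 4 of the 8 factors, beside 18.8% of all genes: Gata6 (adjusted p = 0.00196) was higher and Sox17 (0.000877), Foxa1 (0.00334) and Foxa2 (0.0191) were lower. HP1αKO against WT gave 3, beside 12.1%: Rfx6 (0.00116) and Sox17 (0.0355) were lower and Foxa2 (0.0163) was higher. Between the knockouts 7 were called, all but Sox7, beside 19.9%. In a fit that blocked ESCs by replicate number, HP1βKO against WT gave 3 calls, beside 6.44%: Gata6 (0.00516), Sox17 (0.00272) and Foxa1 (0.0455). Each of these fits keeps a mean per group, so its differences equal those of the fit to 12 arrays. Only the spread and the calls could change, and the shared directions are no further evidence.

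Among other transcription factors of endoderm, Hhex and Otx2 were lower in HP1βKO EBs than in WT. Of 20 such genes 18 were on the array and 11 above the floor. In HP1βKO against WT 0 of 11 were higher, beside 1.63% of all genes, and 2 lower, beside 1.62%: Hhex, a homeodomain factor of anterior visceral endoderm and liver bud (-1.35 ± 0.21, adjusted p = 0.00928), and Otx2, a homeodomain factor of anterior visceral endoderm and of neural tissue (-2.20 ± 0.28, adjusted p = 0.00283). In HP1αKO against WT 0 of 11 were called in either direction with limma, beside 0.763% of all genes higher and 0.478% lower. The list's median was -0.37, beside 0.03 over all genes. Between the knockouts Hhex (-0.94, adjusted p = 0.042), Otx2 (-3.14, adjusted p = 0.000203) and Prox1, a homeodomain factor of liver and lymphatic vessels (-1.02, adjusted p = 0.00493), were lower in HP1βKO. Of these, only the Otx2 calls were kept in all 4 fits that left out 1 array. The fit to the 6 EB arrays called 8 of 11 in HP1βKO against WT (3 higher, 5 lower, beside 18.8% of all genes), 5 of 11 in HP1αKO against WT (2 higher, 3 lower, beside 12.1%) and 8 of 11 between the knockouts (4 higher, 4 lower, beside 19.9%). Against WT this fit added Gata5, a GATA factor of endoderm and heart. Gata5 was lower in both knockouts (-0.71, adjusted p = 0.00787 in HP1βKO and -0.49, adjusted p = 0.0462 in HP1αKO), as was Lhx1. In HP1βKO the fit also added Prox1, which was lower, and Cdx2, Gsc and Mixl1, which were higher. Cdx2, a homeodomain factor of hindgut and trophectoderm, differed by 0.84 (adjusted p = 0.0168). In HP1αKO it also added Prox1 and Otx2, which were higher, and Eomes, which was lower. Lhx1, Mixl1 and Eomes were below the floor on all EB arrays. Prox1 was below it on the arrays of EB WT and EB HP1βKO, and Gsc on those of EB WT.

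Genes of endoderm cell products rose on differentiation in every genotype and a few differed between the EBs. Of 39 secreted, surface and matrix genes 38 were on the array and 30 above the floor. On differentiation 22 rose and 3 fell in WT, 20 rose and 3 fell in HP1αKO, and 20 rose and 3 fell in HP1βKO, beside rises of 22.0%, 25.0% and 22.0% over all genes. The counts of falls have no share over all genes beside them and are not read further. Afp, Ttr, Apoa1, Apob, Apom, Fgb and Vil1 passed the floor through EB arrays alone, so a rise was built into their being tested. Ttr, the thyroxine carrier of visceral endoderm, rose by 5.95 ± 0.22 in WT (adjusted p = 4.04e-07), 4.53 ± 0.22 in HP1αKO (adjusted p = 1.24e-06) and 5.27 ± 0.22 in HP1βKO (adjusted p = 7.53e-07). Its signals were under the floor on all ESC arrays, so these differences have only a bound as folds. In HP1αKO against WT EBs 1 of 30 was higher, beside 0.763% of all genes, Afp, the fetal serum protein (1.08, adjusted p = 0.046). Against 0.478% of all genes 4 of 30 were lower: the apolipoproteins Apob (-1.75, adjusted p = 0.00199) and Apoa1 (-1.52, adjusted p = 0.00568), Ttr (-1.40, adjusted p = 0.0172) and the fibrinogen chain Fgb (adjusted p = 0.00499). Apob alone kept its call in all 4 fits without 1 array. In HP1βKO against WT 1 of 30 was higher (beside 1.63% of all genes), the retinol carrier Rbp4 (1.06, adjusted p = 0.00928). Lower were 2 of 30 (beside 1.62%), Fgb (adjusted p = 0.0228) and the chemokine receptor Cxcr4 (-1.84, adjusted p = 0.00928). None of these calls was kept in all 4 fits without 1 array. Fgb was 5.47 and 5.63 in WT, on both sides of the floor, and under it in HP1αKO (4.60 and 4.47) and HP1βKO (4.89 and 4.96), so no size is given for it. Apob was under the floor on both HP1αKO arrays (4.20 and 4.57), so its difference from WT has only a bound as a fold. The medians of the list were -0.09 and 0.01.

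Between the knockouts 5 of 30 were higher in HP1βKO, beside 1.28% of all genes, and 2 lower, beside 2.45%. Apob (2.13, adjusted p = 0.000155), Apoa1 (2.03, adjusted p = 0.000258), Rbp4 (1.79, adjusted p = 0.000258), Apom (1.44, adjusted p = 0.0308) and Vil1, an actin binding protein of the brush border (0.96, adjusted p = 0.0429), were higher. Cxcr4 (-2.25, adjusted p = 0.00206) and Afp (-1.19, adjusted p = 0.0128) were lower. The calls of Apob, Apoa1, Rbp4 and Cxcr4 were kept in all 4 fits without 1 array. Both HP1αKO arrays were under the floor for Apob, Apom and Vil1, as both HP1βKO arrays were for Hhex and Prox1, so these differences have only a bound as folds. Apob, Apom and Vil1 passed the floor only through EB WT and HP1βKO, and Prox1 only through EB HP1αKO. For these genes a difference between the knockouts was partly built into their being tested. The fit to the 6 EB arrays called 16 of 30 in HP1βKO against WT, 15 of 30 in HP1αKO against WT and 18 of 30 between the knockouts, beside 18.8%, 12.1% and 19.9% of all genes.

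**Figure D4:**
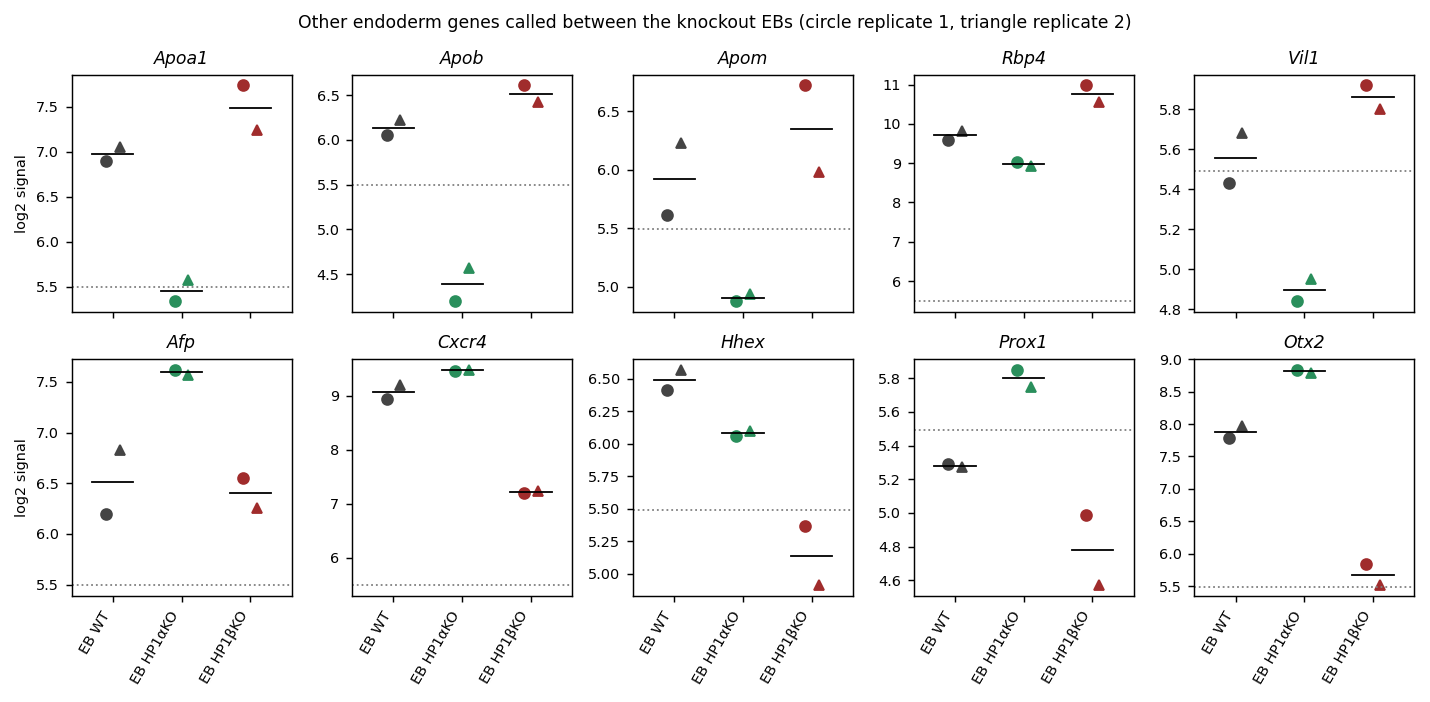
Log2 signal (vertical axis, own scale per panel) of the 10 other endoderm genes called between the knockout EBs, in EB WT, HP1αKO and HP1βKO. Circles are replicate 1, triangles replicate 2, bars group means and the dotted line the floor of 5.49. Apoa1, Apob, Apom, Rbp4 and Vil1 were lowest in HP1αKO, Cxcr4, Hhex, Prox1 and Otx2 were lowest in HP1βKO, and Afp was highest in HP1αKO.

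Several of the 8 factors are also made outside endoderm, and markers of those cell types differed between the EBs. Of 7 cardiac muscle genes tested, 5 were lower in HP1βKO than in WT (beside 1.62% of all genes), 2 were higher in HP1αKO than in WT (beside 0.763%) and 5 were lower in HP1βKO than in HP1αKO (beside 2.45%). The list's mean log2 level was 8.83 and 8.73 in WT, 9.44 and 9.41 in HP1αKO and 6.92 and 6.59 in HP1βKO (summed signal 5690 to 6230, 11100 to 11300 and 802 to 1130). Heart muscle also expresses Gata4 and Gata6. In HP1βKO against WT EBs Gata6 differed by 0.81 ± 0.15, a call lost in each fit without 1 array. Gata4 differed by 0.20 ± 0.22 and was not called (limma adjusted p = 0.822). Of 7 endothelial genes 0 were called in HP1βKO against WT with limma, beside 1.63% of all genes higher and 1.62% lower. In the fit to the 6 EB arrays 4 were called (2 higher, 2 lower), beside 18.8% of all genes. Emcn, a surface sialomucin of endothelium, was higher in HP1αKO than in WT (adjusted p = 0.00248) and than in HP1βKO (adjusted p = 0.0184). It was the only gene of the list called with limma in these comparisons, beside 0.763% and 2.45% of all genes in the same directions. The Emcn call between the knockouts was lost in most fits without 1 array. Emcn was under the floor in EB WT (4.75 and 5.00) and on all ESC arrays. The list had mean levels of 7.24 and 7.30 in WT, 7.70 and 7.70 in HP1αKO and 7.37 and 7.18 in HP1βKO. Of 6 genes of node, notochord and floor plate 3 were tested, and 1 was called in each comparison: Shh, a secreted signal of those tissues. All-gene shares in the same directions were 0.763% for HP1αKO against WT, 1.62% for HP1βKO against WT and 2.45% between the knockouts. The other genes tested, Chrd and Nog, were not called with limma. For HP1βKO minus WT the difference was 0.13 for Chrd and -0.38 for Nog. Shh was 5.93 and 5.80 in WT, 6.78 and 6.87 in HP1αKO and 5.05 and 5.02 in HP1βKO, under the floor. This order of means was that of Foxa1, Foxa2 and Nog, but not of Chrd. Shh passed the floor only through EB WT and HP1αKO. It differed by 0.96 in HP1αKO against WT (adjusted p = 0.0184), -0.83 in HP1βKO against WT (adjusted p = 0.0199) and -1.79 between the knockouts (adjusted p = 0.00016). The calls against WT were lost in each fit without 1 array (adjusted p from 0.115 to 0.244). Undifferentiated ESC markers, 7 of 7 tested, had mean levels of 6.78 and 6.96, 6.36 and 6.32, and 7.57 and 7.24 in the same order of EB groups. Of these, 2 of 7 were higher in HP1βKO than in WT (beside 1.63% of all genes). In HP1αKO against WT 1 was higher (beside 0.763%) and 1 lower (beside 0.478%). In HP1βKO against HP1αKO 3 were higher (beside 1.28%) and 1 lower (beside 2.45%). The feeder fibroblast list, whose genes mesenchyme also expresses, had mean levels of 7.39 and 7.55 in EB WT, 8.35 and 8.42 in EB HP1αKO and 8.50 and 8.32 in EB HP1βKO. Differences were positive for 10 of 10 of its genes in HP1βKO against WT. Of these, 0 were called with limma and 8 in the fit to the 6 EB arrays, beside 18.8% of all genes. In HP1αKO against WT 9 of 10 were positive, with 1 called higher (Lum, a matrix proteoglycan), beside 0.763% of all genes. Against WT, the calls of the cardiac gene Actc1 and the ESC marker Nanog in HP1βKO were lost in each fit without 1 array. So were those of Myh6, Tnnt2, Sox2 and Lum in HP1αKO, and that of Pou5f1 in HP1αKO was lost in most. Those of Mef2c, Myh6, Myl7, Tnnt2 and Pou5f1 in HP1βKO and of Emcn in HP1αKO were kept in all such fits. The part of the cell types of these lists in the results on the 8 factors was not tested.

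In ESCs the question was whether the factors were already altered before differentiation. No factor was called in HP1βKO against WT, HP1αKO against WT or HP1βKO against HP1αKO with limma, beside 0%, 0% and 0.00919% of all genes. At an unadjusted p under 0.05 there were 4 of 8, 0 of 8 and 4 of 8 factors, beside 638, 116 and 552 of the 10880 genes (5.86%, 1.07% and 5.07%). Against WT, HP1βKO was 0.72 ± 0.21 for Sox17 (adjusted p = 0.709), 0.63 ± 0.15 for Gata6 (adjusted p = 0.539), 0.86 ± 0.25 for Rfx6 (adjusted p = 0.709) and 0.34 ± 0.15 for Sox7 (adjusted p = 0.846). Both Rfx6 and Sox7 were below the floor on all ESC arrays. Against HP1αKO the differences were 1.08 ± 0.21 for Sox17 (adjusted p = 0.477) and 0.74 ± 0.15 for Gata6 (adjusted p = 0.489). The arrays of HP1βKO and WT did not overlap for 6 of 8 factors, beside 25.3% of genes, nor those of HP1βKO and HP1αKO for 6 of 8, beside 24.4%.

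Same-numbered ESC replicates deviated together. In a fit blocked by replicate number among the ESCs, HP1βKO against WT gave 1 call, Sox17 (adjusted p = 0.0403), beside 0.478% of genes, and HP1βKO against HP1αKO gave 2, Gata6 (adjusted p = 0.0467) and Sox17 (adjusted p = 0.0148), beside 0.506%. HP1βKO is the ESC group whose Cbx1 and Cbx5 signals both followed its label. Its Sox17 signals, 5.64 and 5.30, lay on both sides of the floor, and those of WT and HP1αKO were under it.

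The last comparison asked whether a knockout's effect differed between EBs and ESCs. For HP1β, 1 of 8 factors was called, Sox17, beside 0.680% of genes that were called in the same direction. Its difference from WT was 0.72 in ESCs, where both group means (5.47 and 4.76) were under the floor, and -0.82 in EBs, and the change between the states was -1.53 ± 0.30 (adjusted p = 0.0451). This call was kept in 2 of 8 fits without 1 array (adjusted p from 0.0101 to 0.189, differences from -1.80 to -1.27). It was lost with the 8 arrays of WT and HP1βKO alone (0.0791), with arrays centred on their medians (0.0666) and with an intensity trend (0.0615). With the replicate block it was 0.0011, and Rfx6 was called too (0.0268), beside 5.27% of genes. In the fit without the block the changes were -1.37 for Rfx6 (adjusted p = 0.123), -1.36 for Foxa1 (adjusted p = 0.204) and -0.57 for Sox7 (adjusted p = 0.306). Without ESC WT replicate 1 the changes were -1.84 for Foxa1 and -1.63 for Foxa2. That fit leaves ESC WT as replicate 2 alone, the library whose Cbx5 signal opposed its label.

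For HP1α, 0 of 8 factors were called with limma, beside 0.230% of genes, and 1 had an unadjusted p under 0.05, beside 615 genes (5.65%). That factor was Rfx6, with a change of -2.09 ± 0.36 between the states (adjusted p = 0.0652). With the replicate block Rfx6 was called (adjusted p = 0.0132), beside 1.08% of genes. Both ESC groups were below the floor for Rfx6.

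For each factor the 3 genes with the most similar profile were taken from the 10880, by the root mean square difference of log2 signals over the 12 arrays after centring each gene on its own mean. A profile of small range finds small differences, so the values are not comparable between factors, and the group order that a gene shares with its factor follows from this choice. Gata4 was nearest to the basement membrane collagen Col4a1 (0.19), Pde3a (0.21) and Zmiz1 (0.24). Gata6 was nearest to the netrin receptor Unc5c (0.31), Rbp4 (0.37) and the T-box factor Tbx20 (0.38). Unc5c had EB means of 8.55 in WT, 7.64 in HP1αKO and 9.07 in HP1βKO, and Rbp4 9.71, 8.98 and 10.77.

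Sox17 was nearest to Stxbp6 (0.21), Cracd (0.22) and Dgkk (0.22), and Sox7 to the activin receptor Acvr2a (0.13), Egfl7, a secreted protein of endothelium (0.13), and Cotl1 (0.14). Foxa1 was nearest to Camk1g (0.21), Shh (0.26) and Zfp608 (0.27), and Foxa2 to Pcbp4 (0.31), Emilin2 (0.33) and Armcx4 (0.34). Hnf4a was nearest to Hps5 (0.15), Arhgef11 (0.17) and Ccm2 (0.17). Rfx6 was nearest to Airn, the noncoding RNA antisense to Igf2r (0.27), the bHLH factor Hand1 (0.29) and the homeodomain factor Msx1 (0.30). The EB means of these were 7.13 in WT, 4.59 in HP1αKO and 6.19 in HP1βKO for Airn, 8.32, 7.04 and 7.82 for Hand1 and 7.85, 6.44 and 7.37 for Msx1.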

How the data were processed

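RNA of 12 samples, 2 in each of 6 groups taken from the sample labels, was measured on single-channel Affymetrix arrays. The authors ran RMA in Affymetrix Expression Console. The deposited values are log2 signals, taken as they stand (1.98 to 13.43 over the genes used). No source used here gives versions or the annotation's build. The study's methods name an exon array, while the platform annotation used here is that of Mouse Gene 1.0 ST. Of 35556 features 21789 carried 1 symbol, 1621 several and 12146 none, and only the first were used. Of these, 21698 matched a RefSeq gene table by gene number. The feature with the highest mean was kept per gene. RMA takes each array to the same distribution, so that levels are relative to the other genes of an array, and the number of arrays limits the precision.

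Genes with a signal above 45 on at least 1 array entered limma 3.58.1 (R 4.3.3), fitted on all 12 arrays with a mean per group, empirical Bayes moderation, 6 residual degrees of freedom and Benjamini-Hochberg adjustment within each comparison at 0.05. Where both arrays of a group lay under the floor, a fold is given as at least the other group's mean over the floor. Folds elsewhere are differences of group means. The steps were tested on simulated data. Replicate differences of the ESC groups correlated at 0.401, 0.497 and 0.300 and those of EBs at 0.112, -0.454 and -0.0921, so the numbers pair the ESC samples only, by their data, and a block among ESCs was an alternative. The other alternatives were the floor, the arrays in the fit, array weights, centring, an intensity trend, the rows of a gene, the fold rule of the methods, the libraries whose Cbx5 opposed their label and each array left out. The 8 factors, the other lists and the tests were chosen with earlier results of these data known. Named are the 8 factors, Cbx1 and Cbx5, called members of the lists and, for each factor, the 3 nearest profiles. Shh, of a marker list, was named after its values were seen, and Chrd and Nog of that list are given beside it.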

Additional observations from a re-analysis of the deposited data

Results flagged for a closer look

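For Sox17 the test of a difference between EBs and ESCs in the effect of HP1β loss passed, with a value that cannot be read as a size. HP1βKO minus WT was -0.82 in EBs and 0.72 in ESCs, and limma's test of that difference gave -1.53 (adjusted p = 0.0451). Both ESC group means, 5.47 and 4.76, were under the signal floor. The call was kept in 2 of 8 fits that left out 1 array. Without the library labelled ESC WT replicate 2, whose Cbx5 signal opposed its label, it was -1.27 and not called (adjusted p = 0.0575), and without it and ESC HP1αKO replicate 2 together it was -1.27 and called (adjusted p = 0.0155).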

How the results depend on the processing

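Counts below are of the 8 factors called. A floor of 100 gave 3 for EBs against ESCs in WT, 4 in HP1αKO, 3 in HP1βKO, 2 between the knockout EBs and 0 for the HP1β effect between states, as fewer factors were tested. The 6 EB arrays alone gave 4 for HP1βKO against WT, 3 for HP1αKO against WT and 7 between the knockouts, and array weights 3, 5 and 7. For the HP1β effect between states the count was 0 with the 8 arrays compared, with median-centred arrays and with an intensity trend. The replicate block gave 3 for EB HP1βKO against WT, 1 for ESC HP1βKO against WT, 2 for ESC HP1βKO against HP1αKO, 2 for the HP1β effect between states and 1 for that of HP1α, and left the other counts within 1.5 times. Without both libraries with opposing Cbx5, EB HP1βKO against WT gave 3. The fold rule of the methods (1.5-fold in each pair of arrays) gave 3 there and 1 for ESC HP1βKO against HP1αKO. The causes were not tested except where stated.

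With 1 array left out the counts ran from 6 to 7 for EBs against ESCs in WT, 6 to 7 in HP1αKO and 5 to 5 in HP1βKO, from 0 to 0 for EB HP1βKO against WT and for EB HP1αKO against WT, from 0 to 2 between the knockout EBs, from 0 to 3 for the HP1β effect between states, and were 0 in the ESC comparisons and for the HP1α effect. Directions turned in uncalled differences only. Median-centring turned Sox7 in EB HP1αKO against WT (-0.04) and Hnf4a in ESC HP1βKO against HP1αKO (0.03). Leaving out both opposing libraries turned Foxa2 in EB against ESC WT (-0.11), Foxa1 (-0.15) and Foxa2 (-0.45) in ESC HP1βKO against WT, Hnf4a in ESC HP1βKO against HP1αKO (0.06), Gata4 in the HP1β effect (0.03), and Gata6 (0.01) and Sox17 (0.03) in the HP1α effect. With 1 array left out, ESC HP1αKO against WT ran from -0.50 to 0.15 for Gata4, -0.62 to 0.32 for Foxa1 and -1.12 to 0.44 for Foxa2. ESC HP1βKO against WT ran from -0.15 to 0.79 for Foxa1 and -0.45 to 1.11 for Foxa2. Against HP1αKO it ran from -0.19 to 0.14 for Hnf4a and -0.01 to 0.35 for Sox7. EB against ESC ran from -0.11 to 1.45 for Foxa2 in WT and -0.52 to 0.16 in HP1βKO, EB HP1αKO against WT from -0.03 to 0.03 for Sox7, the HP1β effect from -0.34 to 0.03 for Gata4, and the HP1α effect from -0.38 to 0.27 for Gata4, -0.29 to 0.25 for Sox17 and -0.17 to 0.03 for Gata6. A fit with 1 array in a group takes its spread from the other groups. Signals under the floor limit what can be said of Sox7, Hnf4a, Foxa1 and Rfx6, and in ESCs also of Sox17 (above it on 1 of 6 arrays) and Gata4 (2 of 6).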
